A study of Mus musculus with 21 samples.

Results

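The passage from day 3 to day 7 after folic acid was followed in whole kidney by small RNA sequencing. It was covered by 6 of the 21 libraries of the series, 3 from day 3 and 3 from day 7, chosen by their labelled day. All libraries came from kidney of male BALB/c mice aged 12 weeks, and the protocol describes an injection of folic acid at 250 mg/kg in sodium bicarbonate with collection at 7 times from day 0 to day 28. Both groups had therefore received folic acid, and they differ in the time since the injection. No vehicle group is described in the labels, and nothing in them says whether each library of a day was made from its own animal. The p-values therefore speak of differences between libraries, whose spread may be technical. Of 1125 mature miRNAs in the deposited table, 431 passed a filter on low counts and were tested.

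A large dose of folic acid injures the renal tubules, and the early days of this model are taken as acute injury and the later weeks as repair and fibrosis. A miRNA is a short RNA cut from a hairpin precursor whose arms are named 5p and 3p. One arm usually accumulates as the guide that directs silencing of messenger RNAs, and pairing runs mainly through the seed near its 5′ end. miRNAs with the same seed can share targets, and several miRNAs mark particular cell types, which is why whole-tissue profiles are often read by group. In whole tissue, fewer cells of a type and less RNA per cell cannot be told apart.

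Few miRNAs were called as different between day 3 and day 7. Of the 431 miRNAs tested, 8 (1.86%) differed at an adjusted p under 0.05 in a limma fit over all 21 libraries. Of these, 7 (1.62%) were higher and 1 (0.232%) was lower at day 7. The higher ones were both arms of the miR-199a hairpin, the miR-199b-3p row that holds the same reads as miR-199a-3p, both arms of miR-181c, miR-31-3p and miR-677-5p. miR-155-5p was the lower one. At an unadjusted p under 0.05 there were 70 miRNAs, 33 higher and 37 lower.

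The mature sequences of the called miRNAs and of the other miR-181 5p arms, from RefSeq on GRCm38.p6, show which of them share a seed. Letters run 5′ to 3′, and capitals mark the seed, bases 2 to 8.
miR-199a-3p and miR-199b-3p: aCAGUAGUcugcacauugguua
miR-199a-5p: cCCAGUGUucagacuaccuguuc
miR-181c-5p: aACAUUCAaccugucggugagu
miR-181a-5p: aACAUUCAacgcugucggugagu
miR-181b-5p: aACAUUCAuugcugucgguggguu
miR-181d-5p: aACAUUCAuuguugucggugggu
miR-181c-3p: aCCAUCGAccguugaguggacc
miR-31-3p: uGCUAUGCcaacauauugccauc
miR-31-5p: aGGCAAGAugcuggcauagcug
miR-677-5p: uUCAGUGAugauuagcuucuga
miR-155-5p: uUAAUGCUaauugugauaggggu
miR-199b-5p had no entry. The 8 called miRNAs carry 7 different seeds, since the 3p arms of miR-199a and miR-199b have the same sequence throughout. The 4 miR-181 5p arms share the seed ACAUUCA.

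On GRCm38, miR-199a-3p lies at chr1:162217883-162217904 on the plus strand, in an exon of the non-coding gene Dnm3os within an intron of Dnm3 on the other strand. A copy lies at chr9:21496498-21496519 on the minus strand, opposite an intron of Dnm2, and miR-199b-3p lies at chr2:32318524-32318545 on the plus strand, opposite an intron of Dnm1. miR-181c-5p lies at chr8:84178924-84178945 on the minus strand in an intron of Nanos3, next to miR-181d-5p at chr8:84178759-84178781. miR-31-3p lies at chr4:88910577-88910599 on the minus strand in an exon of the non-coding gene AL805899.1. miR-677-5p lies at chr10:128085291-128085312 on the plus strand in an intron of Atp5b, and GENCODE annotates its locus as a snoRNA. miR-155-5p lies at chr16:84714143-84714165 on the plus strand in an exon of its host gene Mir155hg.

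The 6 libraries held 3212481 to 6415634 reads assigned to miRNAs and 624 to 671 miRNAs with a read. Where a miRNA has no read, up to 3 reads are compatible with that, or 0.934 CPM (the deposited unit, a read count scaled to a common library total) in the shallowest and 0.468 CPM in the deepest of them, for counting error only. Kidney miRNAs were abundant. miR-192-5p, abundant in proximal tubule, held 7.98% of the reads at day 3 and 6.82% at day 7, whereas the liver miRNA miR-122-5p had 10 reads and the neuronal miR-124-3p had 0 reads over all 6 libraries. Other miRNAs listed for neurons and islets were present, miR-9-5p with 6374 reads and miR-375-3p with 17723. The third day 7 library stood between the days: the mean correlation of its log2 levels with the day 3 libraries was 0.9932, equal to that with the other day 7 libraries, while the other 5 libraries correlated more with their own day. It was the day 7 library nearest to day 3 for 5 of the 8 called miRNAs. Without it 19 miRNAs were called, 13 higher and 6 lower, and 7 of the 8 were among them. Values below are TMM-scaled CPM in replicates 1, 2 and 3, and fold changes were taken on log2(CPM + 1), where the added 1 makes the change of a scarce miRNA look smaller.

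**Figure D1:**
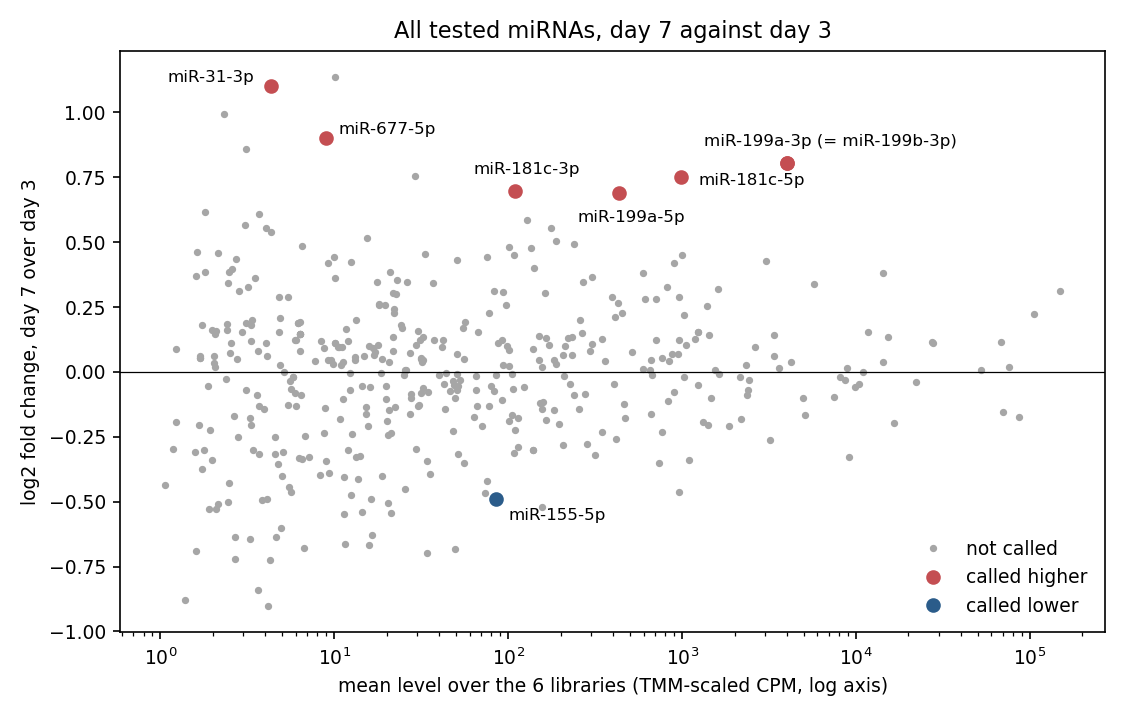
Log2 fold change at day 7 over day 3 (y axis) against the mean level over the 6 libraries in TMM-scaled CPM (x axis, log scale), 1 point per tested miRNA. The 7 called higher are in red, with miR-199a-3p and miR-199b-3p at the same point, and miR-155-5p, called lower, is in blue. Most of the 431 points lie within 0.5 of 0.

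The spread of the differences was narrow. The median log2 fold change of all 431 miRNAs was 0.02, and 386 of them (89.56%) lay within 0.5 of 0 on the log2 scale. Beyond 1 there were 2, miR-31-3p and miR-511-3p. The median 95% confidence interval of a single miRNA reached 0.38 to either side, and 0.32 among the 299 miRNAs whose mean level was 10 CPM or more. These intervals are not adjusted for the 431 tests, and a call asked for more. The smallest called difference was 0.49 from 0 on the log2 scale, and differences below that may have been missed with 3 libraries a side. Larger ones also went uncalled, such as miR-511-3p at 1.14 (limma adjusted p = 0.0574). All 3 day 7 libraries lay above all 3 day 3 libraries for 52 miRNAs (12.1%) and below them for 52 (12.1%).

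The miR-199 and miR-214 miRNAs are made by fibroblasts, pericytes and other mesenchymal cells. The chr1 copy of miR-199a and miR-214 come from the same transcript, Dnm3os, whereas the chr9 copy and miR-199b do not. miR-199a-3p was the most abundant called miRNA. Its level was 3039.2, 2669.5 and 3090.0 CPM at day 3 and 5016, 5245 and 5095 CPM at day 7. The groups did not overlap, and each day was tight, at 2933 ± 229.6 and 5119 ± 116.4 CPM (SD, n = 3). The rise was 0.81 on the log2 scale (SE 0.15, limma adjusted p = 0.00312). Because miR-199b-3p has the same sequence and the same reads, the rise cannot be assigned among the genes of miR-199a and miR-199b. It is counted once in group sums.

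miR-199a-5p, the other arm, read 336.6, 372.2 and 284.7 CPM at day 3 and 672.6, 522.5 and 428.3 CPM at day 7. All day 7 libraries were above all day 3 libraries, with the first day 7 library highest. It rose by 0.69 (SE 0.15, limma adjusted p = 0.0130), and the adjusted p was 0.0999 without the third day 3 library, 0.0788 without the first and 0.0639 without the second day 7 library. With the 6 libraries alone it was 0.0916.

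The remaining miRNAs of this group did not pass the test. miR-214-3p read 272.4, 263.8 and 207.0 CPM at day 3 and 254.8, 203.2 and 237.9 CPM at day 7, so that the days overlapped (log2 fold change −0.09, adjusted p = 0.90 by limma). miR-214-5p read 35.3, 34.9 and 27.3 CPM at day 3 and 46.2, 41.5 and 36.5 CPM at day 7, without overlap (0.34, limma adjusted p = 0.30). miR-199b-5p overlapped between days through the third day 7 library, which read 23.4 CPM, and its log2 fold change was 0.76 (limma adjusted p = 0.0772, and 0.00856 without that library). Of the 6 tested members 3 rose and none fell, where 1.62% of all tested miRNAs rose, and their median log2 fold change was 0.72 beside 0.02. With the identical rows counted once, 2 of 5 rose and the median was 0.69. On the same footing the sum of the group was 3565 ± 176.6 CPM at day 3 and 5970 ± 131.1 CPM at day 7 (SD, n = 3). Most of this sum is miR-199a-3p. The ratio of miR-199a-3p to miR-214-3p was 11.16, 10.12 and 14.92 at day 3 and 19.69, 25.81 and 21.42 at day 7, without overlap. It is 1 of 7 ratios chosen after their values were seen, and its two-sided exact permutation p was 0.1, the smallest that 3 against 3 allows, or 0.175 adjusted over the 7.

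**Figure D2:**
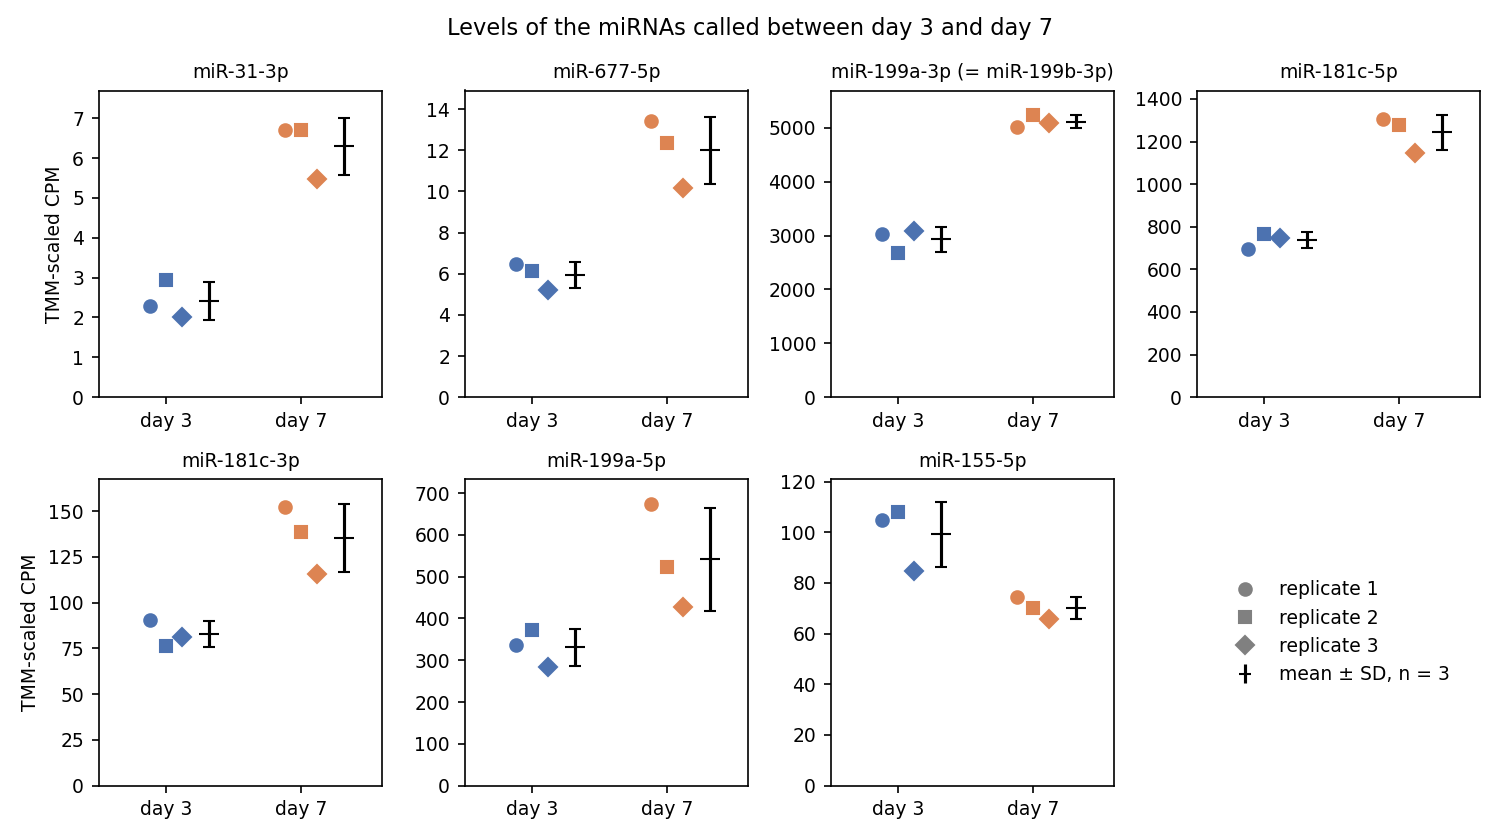
TMM-scaled CPM (y axes, from 0) of each called miRNA in the 3 day 3 libraries (blue) and the 3 day 7 libraries (orange), with the replicate number given by the symbol and the mean ± SD in black. In all 7 panels the days do not overlap, and miR-155-5p is the panel in which day 7 is lower.

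The miR-181 family is abundant in developing lymphocytes, where it tunes antigen receptor signalling, and is also made in many other tissues. miR-181c-5p had the lowest adjusted p of the comparison. It read 694.9, 765.3 and 748.9 CPM at day 3 and 1305, 1276 and 1147 CPM at day 7. The lowest day 7 library stood well above the highest day 3 library. The rise was 0.75 (SE 0.11, 95% interval 0.53 to 0.98, limma adjusted p = 0.000345), and it was called under all 18 alternative settings. miR-181c-5p and miR-199a-3p, with its identical row, were the only miRNAs of which that was so.

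Its partner arm miR-181c-3p read 90.8, 76.5 and 81.5 CPM at day 3 and 152.5, 138.5 and 115.6 CPM at day 7. The days were apart, and the third day 7 library was the lowest of its day. The rise was 0.70 (SE 0.17, limma adjusted p = 0.0333). Its call was lost under 7 of the 18 alternatives, including scaling by library totals (adjusted p = 0.094 by limma), and among single libraries left out the highest adjusted p was 0.139, without the second day 3 library.

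Among the 6 tested miR-181 miRNAs 2 rose, beside 1.62% of all tested miRNAs, none fell, and the median log2 fold change was 0.47. All 3 day 7 libraries were above day 3 for 5 of the 6, beside 12.1% of all. miR-181a-5p, the most abundant, read 12190, 12094 and 13129 CPM at day 3 and 16938, 16689 and 15192 CPM at day 7. Its groups were apart with a log2 fold change of 0.38 (SE 0.10) that missed the threshold (limma adjusted p = 0.0560, and 0.0387 without the third day 7 library). miR-181d-5p, which lies beside miR-181c, had a log2 fold change of 0.49 (limma adjusted p = 0.0772), and miR-181a-3p 0.45 (limma adjusted p = 0.0973). miR-181b-5p was the exception, at 954.8, 1050 and 1080.0 CPM against 1097, 1013 and 937.4 CPM, with overlap and a log2 fold change of −0.02.

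Summed over the 4 miRNAs that carry the seed ACAUUCA printed above, the level was 14430 ± 619.6 CPM at day 3 and 18810 ± 1155 CPM at day 7 (SD, n = 3), a ratio of means of 1.30. At day 0 the same sum was 21990 ± 3123 CPM. Most of this sum is miR-181a-5p. Relative to it, miR-181c-5p was 0.0570, 0.0633 and 0.0570 at day 3 and 0.0770, 0.0765 and 0.0755 at day 7, without overlap. The exact permutation p of this ratio was likewise 0.1, or 0.175 adjusted over the 7 ratios.

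miR-31 is best known from epithelial cells and from tumour invasion. Its 3p arm, which is the scarce one, read 2.28, 2.93 and 2.01 CPM at day 3 and 6.72, 6.70 and 5.47 CPM at day 7. These levels rest on 12, 10 and 10 reads at day 3 and 31, 45 and 22 reads at day 7. The days were apart, the rise was 1.10 (SE 0.24, limma adjusted p = 0.0144), and the ratio of the day means without the added 1 CPM was 2.62. The call was lost without the third day 3 library (limma adjusted p = 0.0945), the first day 7 library (0.0583) or the second day 7 library (0.0725).

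The abundant arm miR-31-5p read 191.6, 159.7 and 186.6 CPM at day 3 and 177.7, 205.3 and 172.0 CPM at day 7. The days overlapped (log2 fold change 0.05, SE 0.19, limma adjusted p = 0.93). The ratio of 5p to 3p was 84.1, 54.5 and 93.0 at day 3 and 26.5, 30.7 and 31.5 at day 7, without overlap (exact permutation p = 0.1, 0.175 adjusted over the 7 ratios).

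miR-677-5p belongs to none of the groups and falls under the 10 CPM that the rule for named miRNAs asked for, and it was chosen after its values were seen. It read 6.46, 6.16 and 5.22 CPM at day 3 and 13.43, 12.35 and 10.19 CPM at day 7, from 34, 21 and 26 reads and from 62, 83 and 41 reads. The days were apart and the rise was 0.90 (SE 0.19, limma adjusted p = 0.00970). It too was lost without the third day 3 library (limma adjusted p = 0.0735), the first day 7 library (0.0583) or the second (0.0639).

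miR-155-5p is induced in activated macrophages and lymphocytes, downstream of NF-kB, and limits several inhibitors of inflammatory signalling. It read 104.8, 108.1 and 84.7 CPM at day 3 and 74.3, 70.2 and 65.6 CPM at day 7. Every day 7 library was below every day 3 library, and it fell by 0.49 on the log2 scale (SE 0.12, limma adjusted p = 0.0323). Of the 8 calls it was lost most often, under 8 of 18 alternatives, with an adjusted p of 0.163 when the 6 libraries were fitted alone. It was also lost in turn without the first (0.138) or second (0.139) day 3 library and without the first (0.0583), the second (0.138) or the third (0.0651) day 7 library, all by limma.

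The other NF-kB feedback miRNAs, which dampen the signalling that induces them, did not pass the test. miR-146a-5p had a log2 fold change of 0.37 and miR-146b-5p of 0.05, both with overlap. Leukocyte markers stood beside the fall of miR-155-5p as follows. The pan-leukocyte miR-142 arms summed to 1360 to 2046 CPM at day 3 and 1659 to 2504 CPM at day 7. Of the 2 arms 0 were called, beside 1.86% of all tested miRNAs, and their median log2 fold change was 0.19. In the lymphoid group, miR-150-5p and the miR-342 arms summed to 321.6 to 422.9 CPM and 354.0 to 458.2 CPM, with 0 of 3 tested members called. No tested marker of either group was at 0. The part of these cells in the result was not tested.

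**Figure D3:**
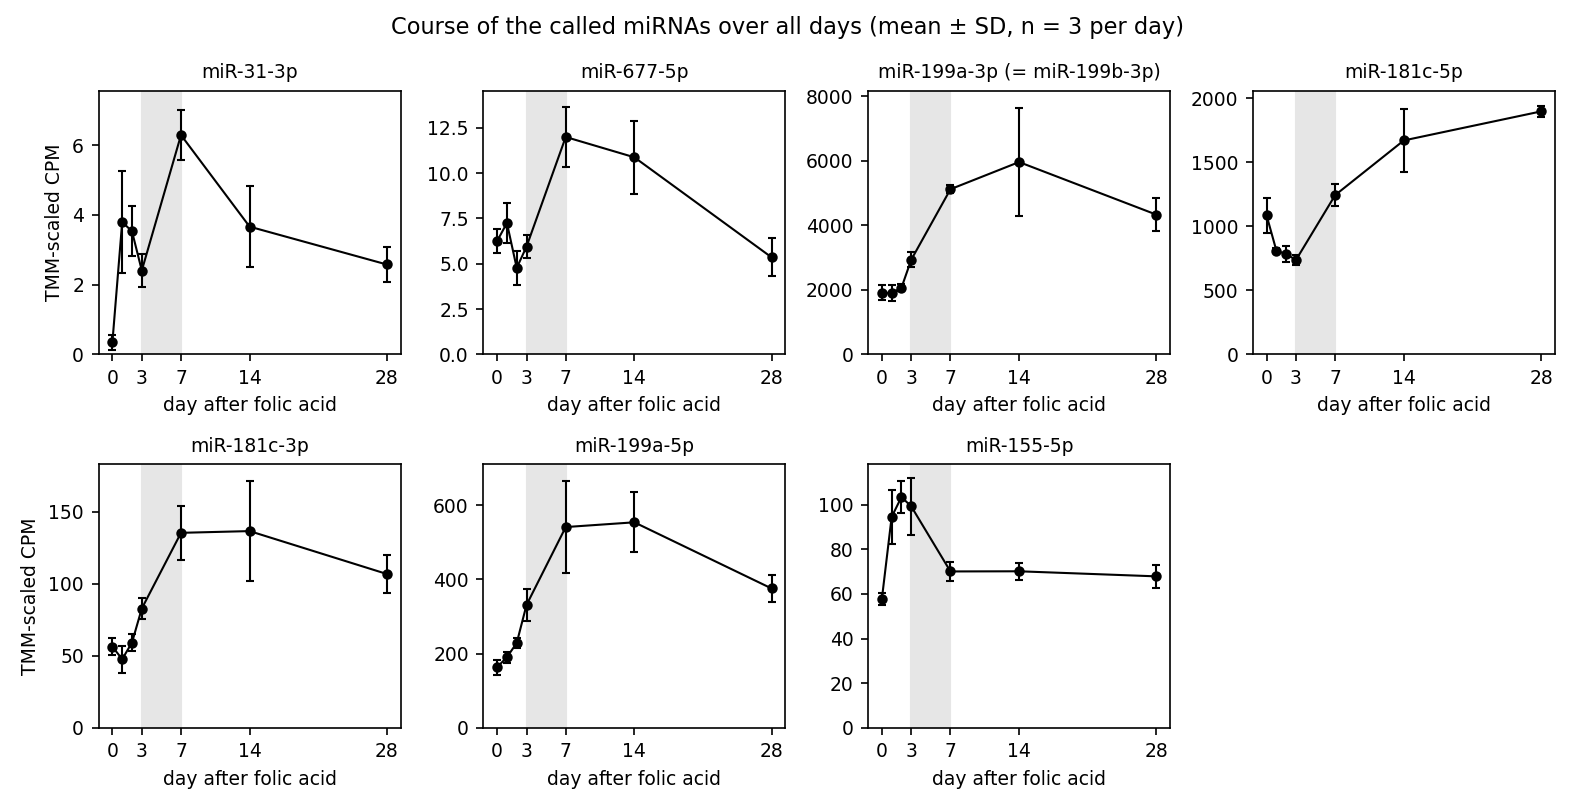
TMM-scaled CPM (y axes, from 0) of each called miRNA over all days after folic acid (x axes), as the mean ± SD of 3 libraries per day, with day 3 to day 7 shaded. miR-31-3p and miR-677-5p have their highest mean at day 7, miR-181c-5p goes on to 1896 CPM at day 28, and miR-155-5p stays near 70.1 CPM from day 7 to day 14.

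The courses of the called miRNAs differed outside this interval. miR-199a-3p averaged 1909 CPM at day 0 and 2064 CPM at day 2, and the step from day 2 to day 3 was already called (log2 fold change 0.51, limma adjusted p = 0.0485). miR-199a-5p was also called in that step (0.53, limma adjusted p = 0.0485). Neither was called from day 7 to day 14, at 0.18 and 0.05. miR-181c-5p stood at 1085 CPM at day 0 and at its lowest mean, 736.4 CPM, at day 3. It was called again from day 7 to day 14 (0.42, limma adjusted p = 0.0311) and averaged 1896 ± 41.4 CPM at day 28 (SD, n = 3). miR-181c-3p took another course, from 56.4 CPM at day 0 to 135.5 CPM at day 7 and 106.9 CPM at day 28.

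miR-155-5p averaged 57.6 CPM at day 0, 94.5 CPM at day 1, 103.4 CPM at day 2 and 99.2 CPM at day 3. At day 7 it averaged 70.1 CPM, and the difference to day 14 was 0.00 (SE 0.12). miR-31-3p averaged 0.344 CPM at day 0, under the limit of 3 reads, then 3.80 CPM at day 1, 2.41 CPM at day 3 and 6.29 CPM at day 7, and 3.66 CPM at day 14 with no call for that last step (−0.67, limma adjusted p = 0.139). In the same fit 23 of 431 miRNAs (5.34%) were called from day 2 to day 3, 16 higher and 7 lower, and 19 (4.41%) from day 7 to day 14, 5 higher and 14 lower. These steps share the day 3 or the day 7 libraries with the one described, and the difference between their counts was not tested.

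The 35 cell and pathway groups held 191 tested miRNAs, of which 6 rose and 1 fell, all named above. That is 3.66% of them, beside 1.86% of all tested miRNAs, and it includes the miR-199b-3p row with the reads of miR-199a-3p. The groups were chosen with earlier results known, and 31 of them held no called member. With 1.86% called over all tested miRNAs, the lack of a call does not set a small group apart. Medians of 7 groups, none of them beyond 0.08 from 0, had the other sign under scaling by library totals or upper quartiles.

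**Figure D4:**
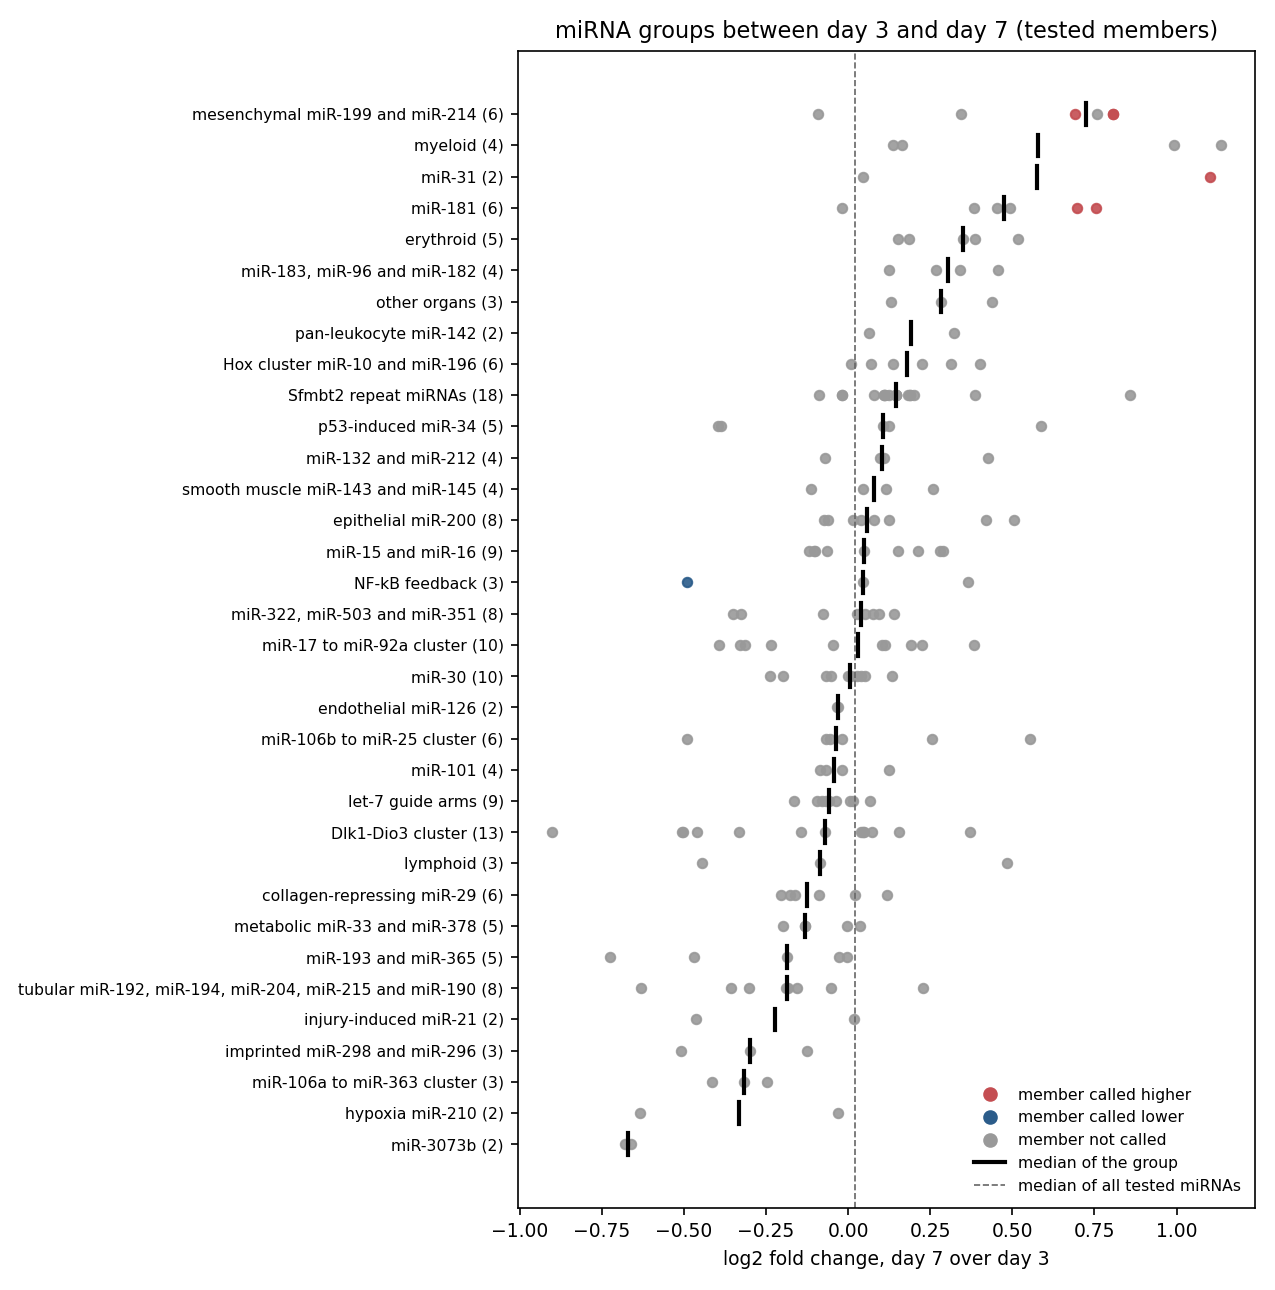
Log2 fold change at day 7 over day 3 (x axis) of each tested miRNA in the groups with at least 2 tested members (y axis, number tested in parentheses). Points are miRNAs, red called higher, blue called lower and grey not called, black bars are group medians, and the dashed line is the median of all 431. The red points fall in the miR-199 and miR-214, miR-181 and miR-31 groups and the blue one in the NF-kB group.

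The miR-21 and miR-29 miRNAs, which are tied to renal fibrosis, did not pass the test over this interval. miR-21-5p, which is induced by tubular injury and by transforming growth factor beta, read 77780, 80956 and 66720 CPM at day 3 and 87516, 74802 and 66704 CPM at day 7. The days overlapped (log2 fold change 0.02, SE 0.15, limma adjusted p = 0.96), both far above the day 0 mean of 14740 CPM. The other arm, miR-21-3p, read 1291, 1095 and 965.8 CPM at day 3 and 829.9, 826.3 and 757.9 CPM at day 7, without overlap and without passing the test (−0.46, SE 0.20, limma adjusted p = 0.22). Of the 6 miR-29 miRNAs, which repress collagen genes, none was called and all overlapped, with a median of −0.13. miR-29a-3p read 2650, 2321 and 2291 CPM at day 3 and 2089, 2352 and 2384 CPM at day 7.

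Tubular and epithelial miRNAs were likewise not called, where 1.86% of all tested miRNAs were. In the tubular group of miR-192, miR-194, miR-204, miR-215 and miR-190 the median of 8 tested members was −0.19, with 7 below 0. All 3 day 7 libraries were below day 3 for 3 of the 8 and above it for 1, beside 12.1% of all tested miRNAs each way. Their sum was 76690 ± 7031 CPM at day 3 and 69010 ± 7527 CPM at day 7 (SD, n = 3), beside a day 0 mean of 124800 CPM. miR-192-5p read 78491, 65759 and 77191 CPM at day 3 and 58375, 67229 and 73465 CPM at day 7, with overlap. The members below were miR-194-2-3p, miR-194-2-5p and miR-190-3p. miR-194-2-3p read 20.9, 19.9 and 19.5 CPM against 9.32, 12.5 and 17.2 CPM, with a log2 fold change of −0.63 that missed the threshold (limma adjusted p = 0.0772) and passed it without the third day 7 library. miR-194-2-5p, the abundant arm, read 2278, 2282 and 2347 CPM against 2036, 2044 and 2005 CPM and did not pass (−0.18, limma adjusted p = 0.54). miR-204-5p was the member above 0, at 427.7, 395.4 and 414.9 CPM against 537.8, 454.9 and 460.1 CPM, without overlap (0.23, limma adjusted p = 0.23). The 10 miR-30 miRNAs, abundant in kidney epithelium and podocytes, had a median of 0.00 and no call.

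In the miR-200 group, which maintains the epithelial state by repressing Zeb1 and Zeb2, 0 of 8 tested members were called and the median was 0.06. The closest was miR-200c-3p, at 174.1, 140.1 and 152.7 CPM against 234.2, 218.1 and 209.6 CPM. Its days were apart, with a log2 fold change of 0.51 (SE 0.14, limma adjusted p = 0.0646). miR-141-3p, from another hairpin of the same cluster as miR-200c, was apart too, with a log2 fold change of 0.42 (limma adjusted p = 0.20). miR-200a-3p, miR-200b-3p and miR-429-3p, from the other cluster of the family, overlapped between days at 0.13, 0.04 and 0.02.

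No miRNA of the smooth muscle or endothelial groups was called, where 1.86% of all tested miRNAs were. The smooth muscle group of miR-143 and miR-145 had 0 of 4 called, and its sum was 64840 to 68400 CPM at day 3 and 64770 to 79190 CPM at day 7. The endothelial miR-126 arms had log2 fold changes of −0.03 each. Their sum was 10650 to 11630 CPM and 10540 to 11120 CPM.

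Myeloid miRNAs had a median log2 fold change of 0.58 with 0 of 4 called, beside 1.86% of all tested miRNAs. miR-511-3p, which lies at chr2:14261051-14261072 in an intron of Mrc1, the macrophage mannose receptor gene, read 7.78, 6.16 and 3.61 CPM at day 3 and 10.18, 21.13 and 11.43 CPM at day 7. The days were apart, with the second day 7 library the highest, and the log2 fold change of 1.14 (SE 0.31) missed the threshold (limma adjusted p = 0.0574, and 0.0496 without the third day 7 library). It was called under 6 of the 18 alternatives, among them edgeR's quasi-likelihood test and DESeq2. miR-511-5p was at 1.14, 2.05 and 0.602 CPM against 3.47, 3.12 and 3.48 CPM. miR-223-3p, the abundant granulocyte and monocyte miRNA, overlapped at 239.6, 270.8 and 159.7 CPM against 236.0, 301.9 and 193.1 CPM.

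Erythroid miRNAs varied widely within a day. miR-451 read 298.5, 173.5 and 226.7 CPM at day 3 and 390.9, 362.6 and 171.3 CPM at day 7. The third day 7 library was the lowest of all 6, and the group summed to 1142 to 1774 CPM at day 3 and 767.9 to 2384 CPM at day 7. The median of the 5 members was 0.35, and none was called.

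No member of the proliferation clusters was called either, where 1.86% of all tested miRNAs were. In the miR-17 to miR-92a cluster 0 of 10 passed, with a median of 0.03. Its most abundant member, miR-92a-3p, read 10186, 9921 and 10080 CPM at day 3 and 9141, 7280 and 7712 CPM at day 7. The day 7 libraries were all lower, and the log2 fold change of −0.33 (SE 0.10) did not pass (limma adjusted p = 0.0772), but did without the first day 7 library and under scaling by library totals or upper quartiles. miR-34a-5p, a p53 target, had a log2 fold change of 0.59 (limma adjusted p = 0.15) without overlap, while the group of 5 had a median of 0.11.

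Both arms of a hairpin come from the same precursor. For 150 hairpins both arms were tested, and the differences of the 5p and the 3p arm correlated across hairpins with Pearson's r of 0.489, a description in which all points share the 6 libraries and hairpins are not independent. The sign was the same for 96 of the 150. Both arms were called for miR-181c and miR-199a, and a single arm for miR-31 and miR-199b. The called arm of miR-199b is the row that holds the same reads as miR-199a-3p, so it is not a separate result.

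The ratio of 5p to 3p was itself fitted with limma, a test added after the data were seen. It called 0 of 150 hairpins (0%), with 16 at an unadjusted p under 0.05, and no other tool was run on the ratios. The 3 with the lowest p had the same adjusted p of 0.0504: miR-31 (−1.06, SE 0.27), miR-342 (−0.93, SE 0.24) and miR-21 (0.48, SE 0.13). miR-342-3p, in an intron of Evl and abundant in lymphocytes, read 73.85, 94.96 and 81.25 CPM at day 3 and 142.1, 109.9 and 100.4 CPM at day 7. Its 5p arm read 5.51, 6.45 and 7.62 CPM against 4.77, 4.02 and 4.72 CPM. The arms were apart in opposite directions, and neither passed the test alone.

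**Figure D5:**
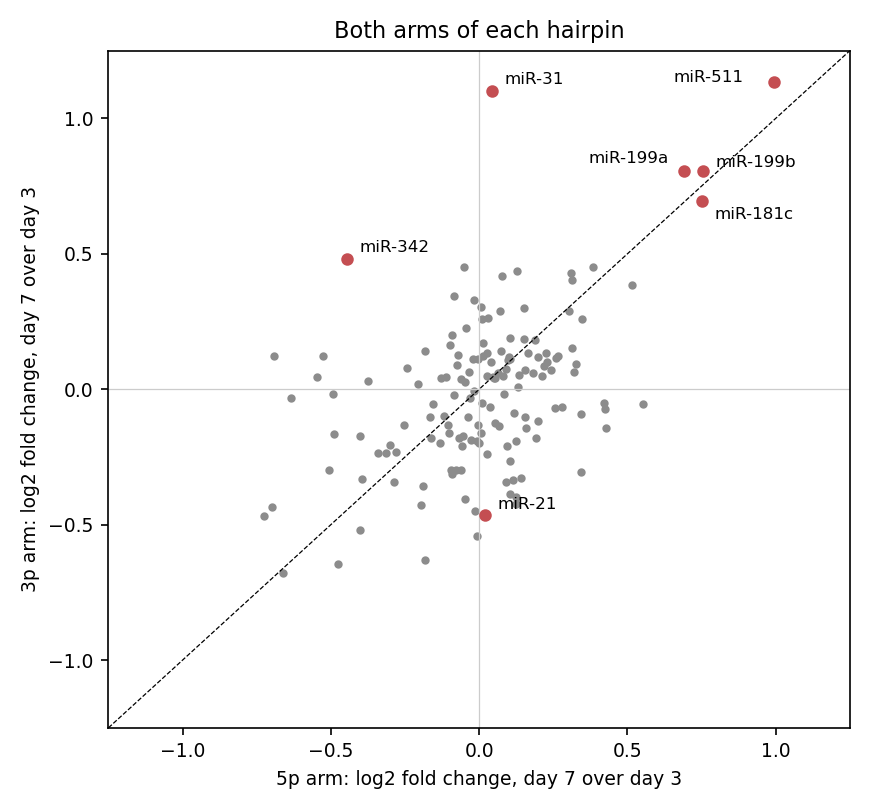
Log2 fold change at day 7 over day 3 of the 3p arm (y axis) against the 5p arm (x axis) for 150 hairpins, with the dashed line marking equal change. Red marks hairpins described in the text. miR-199a, miR-199b, miR-181c and miR-511 lie near the line, whereas miR-31, miR-342 and miR-21 lie away from it.

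The abundant miRNAs set the scale of CPM, since values are shares of a library. The 10 most abundant held 71.39% ± 0.545 of the reads at day 3 and 71.99% ± 0.363 at day 7 (SD, n = 3, two-sided exact permutation p = 0.2, with 0.1 the smallest that 3 against 3 allows). The difference was 0.60 percentage points of reads. Divided by the TMM factors, the same percentages differed by 4.44. That value includes the differences between the factors and is not a share of reads. miR-10a-5p, which lies in a Hox cluster, was the most abundant, at 14.35%, 15.05% and 13.23% of reads at day 3 and 19.67%, 15.24% and 15.49% at day 7. The first day 7 library stood above the others, and its TMM factor of 0.949 was the lowest of the 6, the others being 1.05 to 1.11. On TMM-scaled CPM the log2 fold change of miR-10a-5p was 0.31 (SE 0.16, limma adjusted p = 0.30). miR-22-3p was 9.74%, 9.69% and 10.2% of reads at day 3 and 7.27%, 9.16% and 8.55% at day 7, all lower, with a log2 fold change of −0.17 that did not pass (limma adjusted p = 0.37).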

How the data were processed

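Small RNA libraries of kidney were compared between day 3 and day 7 (3 each). Per the submitters' processing notes CASAVA 1.8 and build mm9 were used; the aligner is not given in the sources used here. The authors deposited CPM (every column has the same round total), from which whole reads were recovered for 100% of values (tolerance 0.05 read). miRNAs were kept by filterByExpr (edgeR 4.0.16, minimum count 10) and fitted with limma 3.58.1 (trend) on log2(TMM-scaled CPM + 1) over all 21 libraries, with a mean per day. A call is a Benjamini-Hochberg adjusted p under 0.05 over 431 miRNAs. The edgeR quasi-likelihood test and DESeq2 1.42.0 were run on the recovered reads as alternatives and called 12 and 21. Other alternatives changed scaling, filter, pseudocount (0.5, 5), the libraries fitted and the replicate term. The functions were tested on simulated data. Named miRNAs were called ones with at least 10 CPM and no overlap between days, members of the 35 groups, the 10 most abundant and partner arms. Groups and members were chosen with earlier results of these data known. RefSeq sequences matched 318 of the 431 miRNAs; host genes are from GENCODE vM21. Arm names without a locus number in the table were matched to the group names by arm.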

Additional observations from a re-analysis of the deposited data

How the results depend on the processing

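Main calls were 8 miRNAs, 7 higher and 1 lower. Without the filter on low counts 3 of 875 were called, and DESeq2 called 21 (18 higher, 3 lower), all 8 among them. Leaving out 1 library gave 3 (without the second day 7 library) to 19 (without the third). Leaving out the third day 3 library or the first day 7 library gave 4 each. Of members of the groups 7 were called, and the counts were 3 without the filter and 3 to 13 without 1 library. Scaling by library totals gave 6 higher and 3 lower and by upper quartiles 7 higher and 5 lower, with medians of all miRNAs at −0.05 and −0.06. The difference in the share of the 10 most abundant miRNAs was 0.60 percentage points of reads. The percentages divided by the TMM factors differed by 4.44, which includes the differences between the factors and is not a share. Deviations of same-numbered libraries correlated at −0.11, −0.13 and 0.23, and only the libraries numbered 3 matched best with each other. These values show no clear pairing by replicate number, but cannot settle whether such libraries were handled together. With the replicate block 6 were called. No called miRNA changed sign under the 18 alternatives, while 212 of 3258 values of uncalled group members did. Called miRNAs lay at least 0.49 from 0, whereas uncalled ones could lie near 0. The contrast thus follows from the selection and says nothing for the calls. With 3 libraries a day, depth limits scarce miRNAs such as miR-31-3p. The cause of these shifts was not tested.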

Other observations

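Several miRNAs outside the groups came close to the threshold and were chosen for that after their values were seen. In all, 16 miRNAs had a limma adjusted p between 0.05 and 0.1, 9 with a log2 fold change above 0 and 7 below. miR-1199-5p read 43.3, 35.8 and 47.8 CPM at day 3 and 22.1, 25.3 and 29.6 CPM at day 7, without overlap (−0.70, SE 0.19, limma adjusted p = 0.0560), and was called under 7 of the 18 alternatives. miR-330-3p read 21.8, 29.0 and 25.5 CPM against 17.3, 14.7 and 19.4 CPM (−0.54, SE 0.15, limma adjusted p = 0.0560) and was called under 8. miR-3057-5p and miR-874-5p were also apart and below 0, at −0.54 and −0.55. miR-340-5p, in an intron of Rnf130, was apart above 0, at 747.5, 704.0 and 716.0 CPM against 889.5, 1011 and 824.8 CPM (0.33, limma adjusted p = 0.0973).

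Sums over miRNAs with the same seed were taken for the 35 seeds shared by 2 or more of the 318 tested miRNAs with a sequence, with no test. Tested miRNAs without a sequence, such as miR-30b-5p and miR-30d-5p, are missing from these sums. All day 7 sums lay above day 3 for 9 of them and below for 3, beside 12.1% of single tested miRNAs each way. Among the 9 were CAGUAGU, the same reads under the names miR-199a-3p and miR-199b-3p, and ACCCGUA of miR-99a, miR-99b and miR-100. The latter summed to 3259, 3110 and 2524 CPM at day 3 and 4400, 3492 and 3896 CPM at day 7. The seed AUUGCAC of miR-25, miR-32, miR-363, miR-92a and miR-92b summed to 13000, 12410 and 12540 CPM at day 3 and 11790, 9625 and 10180 CPM at day 7, and the seed GCUACAU of miR-221 and miR-222 to 2559, 2580 and 2757 CPM against 2286, 2156 and 2158 CPM. The 9 let-7 guide arms, which share a seed, summed to 60300 ± 2927 CPM and 58220 ± 591.2 CPM (SD, n = 3), with overlap.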
